A study of Mus musculus with 24 samples.

Results

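Described here are 10 genes of the insulin-like growth factor (IGF) system of the mouse: the growth factors Igf1 and Igf2, the serum carrier subunit Igfals, the growth hormone receptor Ghr, and the IGF-binding proteins Igfbp1 to Igfbp6. They were chosen by name, as every array probe whose gene name was one of these 10, out of 27962 names on the array. This gave 20 of 41174 probes. The probe of a gene with the highest mean intensity over both colour channels was taken as its main probe, and 6 of the 10 genes had further probes, which are reported beside it. Levels of the genes were compared between liver and colon and between 2 diets in each tissue.

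RNA of whole colon and whole liver came from the same 12 female C57BL/6 mice, aged 12 weeks. The mothers of all of them ate, through mating, gestation and lactation, a diet high in fat in which selenium and folate were low. At weaning, at about 28 days of age, 6 mice stayed on that diet (HF-low-low) and 6 moved to one as high in fat but sufficient in both nutrients (HF-low-suf), so every group ate a high-fat diet and none was raised by mothers with sufficient supply. Each of the 4 groups (colon HF-low-low, colon HF-low-suf, liver HF-low-low and liver HF-low-suf) thus held 6 mice, and liver and colon of a mouse form a pair. Each RNA was labelled with Cy3 and hybridised to its own 2-colour array beside a Cy5-labelled reference, which the labels describe as an equimolar pool of the colon and liver RNA of all the mice. By the methods of the study the mice were fasted and then fed again shortly before the tissues were taken. All values below are log2 ratios of sample over reference, so that 1 unit is a doubling.

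Growth hormone from the pituitary acts through Ghr on the liver, which secretes most of the IGF-I in blood. Most circulating IGF-I is held in a complex with IGFBP-3 or IGFBP-5 and the acid-labile subunit, the product of Igfals. The smaller binding proteins IGFBP-1 and IGFBP-2 are shaped by feeding and insulin, while IGFBP-4, IGFBP-5 and IGFBP-6 act largely within tissues, where connective tissue and muscle cells also make IGFs for local use.

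The sequences of 5 probes are given, to show what was hybridised for 5 of the 6 members that were higher in liver; each is 60 bases long, written 5′ to 3′ in lower case, and none holds a marked part. Coordinates are those of the array annotation, in build mm7. The Igf1 probe lay at chr10:87471884-87471943 on the plus strand, the Igfals probe at chr17:23064462-23064521 on the plus strand, the Ghr probe at chr15:3153846-3153905 on the minus strand, the Igfbp2 probe at chr1:73093964-73094023 on the plus strand and the Igfbp4 probe at chr11:99157316-99157375 on the plus strand. Those of Igfals and Igfbp2 are main probes, and those of Igf1, Ghr and Igfbp4 are further probes of these genes. Exons of that build were not analysed here.
Igf1: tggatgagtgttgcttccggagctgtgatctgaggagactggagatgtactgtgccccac
Igfals: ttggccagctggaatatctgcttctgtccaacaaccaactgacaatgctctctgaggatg
Ghr: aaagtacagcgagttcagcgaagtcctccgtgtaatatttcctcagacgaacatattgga
Igfbp2: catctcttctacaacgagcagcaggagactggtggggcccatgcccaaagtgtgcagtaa
Igfbp4: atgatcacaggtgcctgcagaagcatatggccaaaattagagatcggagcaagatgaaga

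The tissue labels were borne out by marker genes. All 8 hepatocyte markers were higher in liver (median difference 6.14) and all 8 markers of colon epithelium were higher in colon (median difference -4.29). Markers of smooth muscle (7 of 7), fibroblasts (5 of 6) and fat (6 of 6) were also higher in the whole colon. The median Cy3 signal was 3.76 to 7.10 times its local background. Correlations between arrays of a group ran from 0.656 to 0.938. In 2 livers, HF-low-suf replicates 1 and 2, transcripts of fat or skeletal muscle were high, with mean log2 ratios of the 6 fat markers at 2.58 and -0.25 against -1.77 to -0.92 in the other 4 livers of the group. In 3 livers, HF-low-low replicate 6 and HF-low-suf replicates 4 and 5, transcripts of colon epithelium and pancreas were high. Their mean log2 ratios of the 8 epithelium markers were -2.66, -2.53 and -2.91, against -4.11 to -3.45 in the other 9 livers, and those of the 6 pancreas markers were -1.23, -1.12 and -1.52, against -2.60 to -2.06. Colon HF-low-suf replicate 5 and liver HF-low-suf replicate 4 had a brighter Cy5 channel than all other arrays. Some main probes were dim in 1 tissue. In liver, Igf2 was well above background on 2 of 12 arrays, Igfbp6 on 9 and Igfbp5 on 10. In colon, Igfbp1 was well above background on 1 of 12 arrays and Igfals on 4.

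The comparison of the tissues asked where in the body each member was expressed. Of the 10 genes, 9 differed between liver and colon at a Benjamini-Hochberg adjusted P under 0.05 and a fold change over 1.5 in limma. Igf1, Igfals, Ghr, Igfbp1, Igfbp2 and Igfbp4 were higher in liver, and Igf2, Igfbp5 and Igfbp6 were higher in colon. Igfbp3 did not pass. Over all probes, 11.4% were called higher in liver and 12.2% higher in colon, 23.6% in all. Among the 19080 probes kept by a filter for signal well above background, the share called was 45.6%. Under median centring in place of loess the share of calls that were higher in liver was 29.2%, against 48.3% with loess, and all 10 members were called, the 9 in the same directions and Igfbp3 as higher in colon. The median difference of the 10 members was 2.82, against 0.02 over all probes. In whole tissue, fewer cells of a type and less RNA per cell cannot be told apart.

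**Figure D1:**
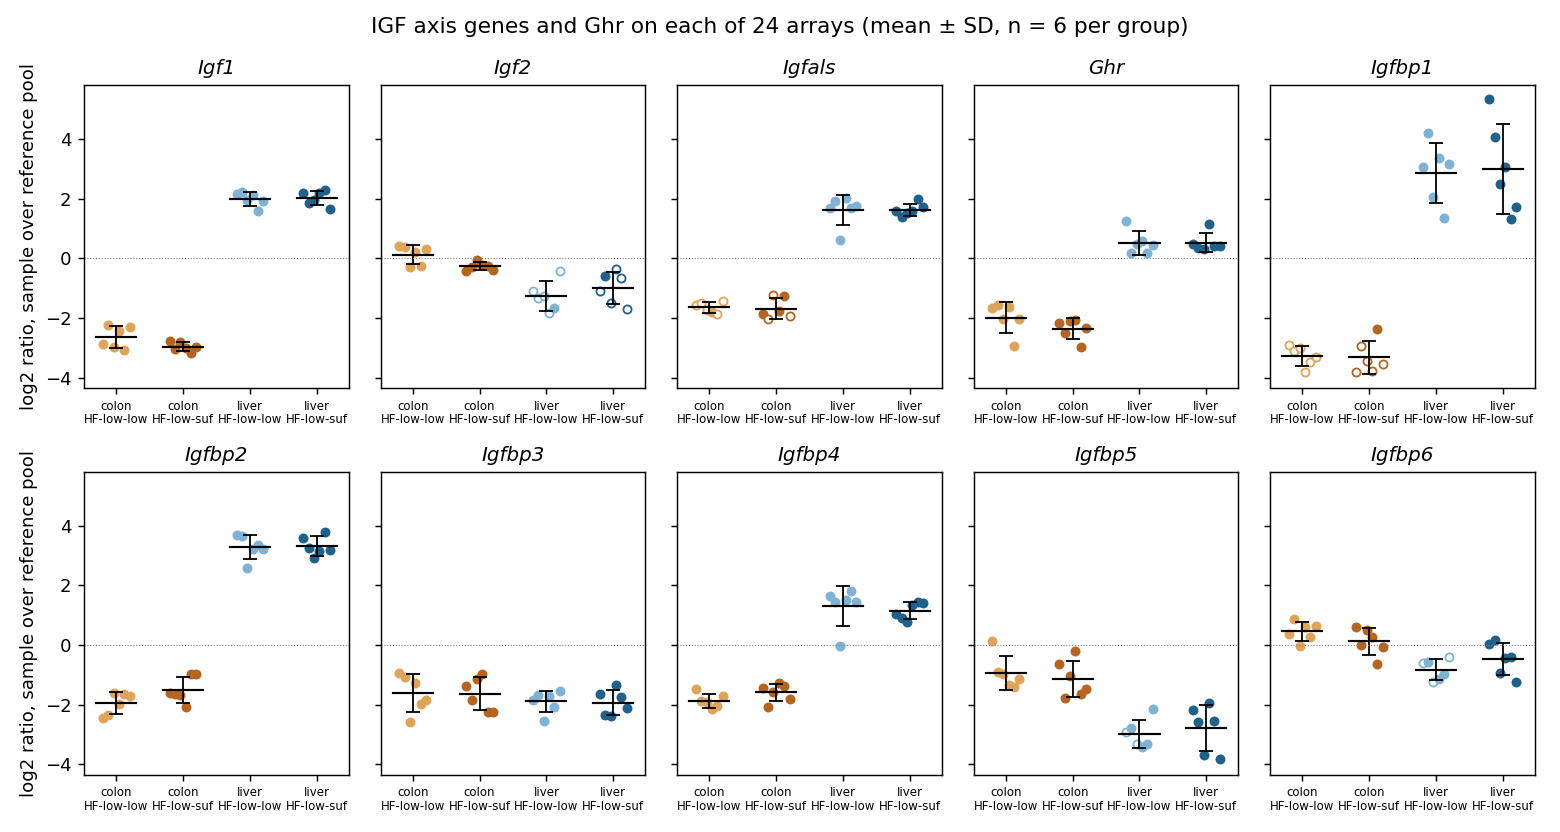
Log2 ratio of sample over reference pool for the main probe of each gene (vertical axis) on every array, by group (horizontal axis, 6 mice each); bars are the mean and SD, and open points were not well above background in Cy3. Igf1, Igfals, Ghr, Igfbp1, Igfbp2 and Igfbp4 sit higher in all 12 livers than in any colon, Igfbp5 sits higher in all 12 colons, and Igfbp1 spreads from 1.33 to 5.35 among the livers.

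The ligand Igf1 was 28.2-fold higher in liver. Its log2 ratio ran from 1.59 through a median of 2.04 to 2.28 in the 12 livers and from -3.18 through -2.92 to -2.22 in the 12 colons. The tissues did not overlap, and the livers lay within less than 1 log2 unit of each other. The difference was 4.82 (SE 0.10, limma, adjusted P = 6.69e-24), positive in 12 of 12 mice, which gave the smallest P that the exact paired sign-flip permutation test allows, 0.000488. The second Igf1 probe, whose sequence is given above, differed by 4.11 (SE 0.08). The third, a dim probe, was well above background in 5 of 12 livers and no colon. It differed by 1.13, or 1.60-fold as a rough bound on Cy3 signal. Rough bounds of this kind compare Cy3 signals after loess and Aquantile scaling. They set the dim tissue no lower than the dimmest signal well above background on each array, which is no strict detection limit. For this probe, liver HF-low-low replicate 1 at 9.49 was not well above background and replicate 5 at 8.64 was. The bounds are also open to dye bias, since the dyes were not swapped.

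Igf2, an imprinted growth factor with its main role before birth, ran the other way. The 12 colons read from -0.42 through -0.23 to 0.40, and every colon was well above background. The livers read from -1.85 through -1.18 to -0.36, with 2 of 12 well above background. The difference was -1.06 (SE 0.15, limma, adjusted P = 8.12e-07), with colon higher in 12 of 12 mice (exact paired P = 0.000488), although the highest liver lay above the lowest colon. The second Igf2 probe, well above background in 8 of 12 colons and no liver, differed by -0.55, a rough bound of 1.13-fold. Beside this, the fat markers, whose mean log2 ratio was 0.95 to 3.11 in the colons and -1.83 to 2.58 in the livers, and the smooth muscle markers, at 0.37 to 1.19 in the colons and -3.55 to -1.94 in the livers, were higher in colon as well. Their part in the Igf2 difference was not tested. The 3 livers high in colon epithelium and pancreas markers, at -0.42, -0.36 and -0.64, were among the 4 highest in Igf2. Without them, a setting chosen after seeing the data, the Igf2 difference was -1.26 (limma, adjusted P = 1.66e-08).

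Igfals, which encodes the acid-labile subunit that keeps IGF complexes in blood, was high in liver, where it read from 0.62 through 1.69 to 2.005. In colon it read from -2.04 through -1.75 to -1.24, but with only 4 of 12 arrays well above background. The fitted difference was 3.28 (SE 0.12, limma, adjusted P = 3.42e-18) with no overlap of the tissues, and liver was higher in 12 of 12 mice.

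Ghr, the receptor through which growth hormone acts, was 6.46-fold higher in liver. Livers read from 0.17 through 0.43 to 1.25 and colons from -2.97 through -2.09 to -1.58, all well above background and without overlap. The difference of the main probe was 2.69 (SE 0.14, limma, adjusted P = 5.26e-15, exact paired P = 0.000488). The 5 Ghr probes had 1 direction but not 1 size. Probes for the RefSeq mRNA NM_010284 differed by 2.69, 3.22 and 3.19. The remaining probes, annotated to other cDNA clones of the gene, differed by 1.58 and 1.16. The last of these was well above background in 6 of 12 livers and 1 of 12 colons, a rough bound of 1.59-fold.

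**Figure D2:**
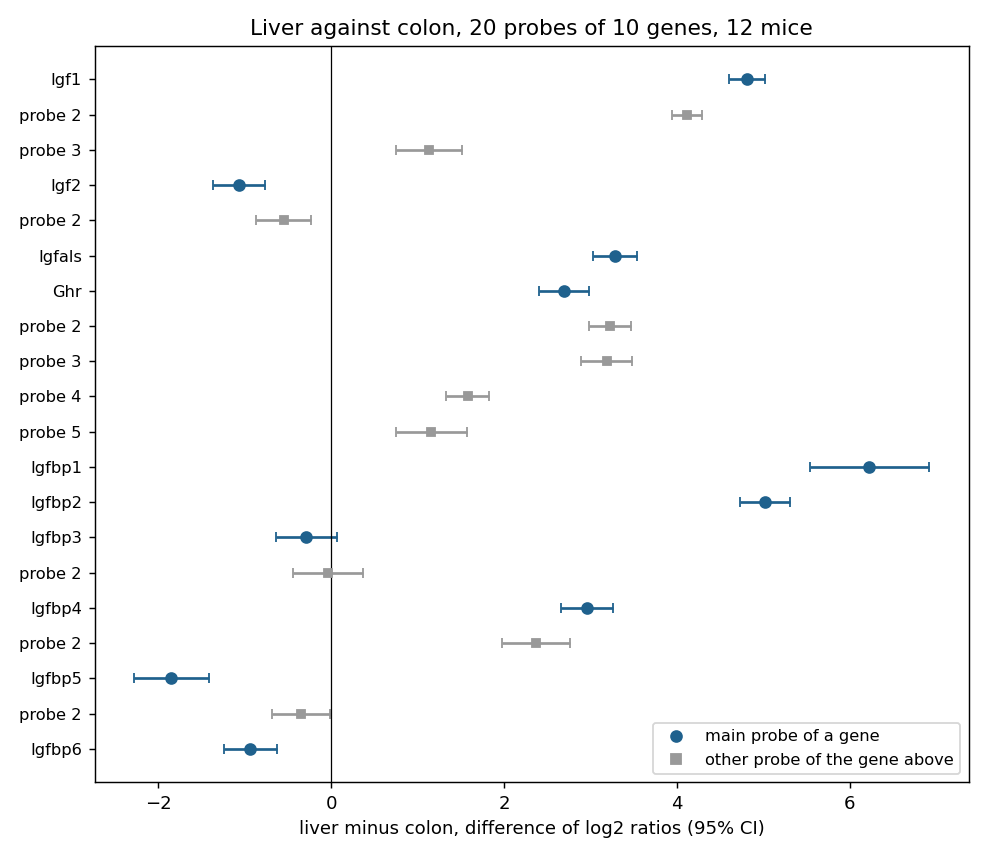
Liver minus colon difference of log2 ratios (horizontal axis) with its 95% confidence interval for all 20 probes (vertical axis), from the limma fit with mouse as a random block; circles are main probes and squares the further probes of the gene above them. Igfbp1 has the widest interval, 5.54 to 6.91, the probes of Ghr and Igf1 differ in size, and the interval of Igfbp3 spans 0.

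Among the binding proteins, Igfbp1 and Igfbp2 showed the largest differences. Igfbp1, a binding protein that insulin holds down and fasting raises, read from 1.33 through 3.06 to 5.35 in liver. The colons read from -3.82 through -3.38 to -2.37, and 1 of 12 was well above background, so that the fitted difference of 6.23 (SE 0.33, limma, adjusted P = 9.96e-15) rests on dim colon signals. The rough bound was 60.5-fold on Cy3 signal. Igfbp2, the other small soluble carrier, was measured well above background on all 24 arrays. It read from 2.58 through 3.25 to 3.80 in liver and from -2.45 through -1.66 to -0.98 in colon, a difference of 5.02 (SE 0.14, 32.5-fold, limma, adjusted P = 5.25e-21). Neither gene overlapped between the tissues, and both were higher in the liver of 12 of 12 mice.

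Igfbp4, which binds IGFs and keeps them from their receptor until it is cleaved, was 7.76-fold higher in liver. It read from -0.04 through 1.43 to 1.80 in liver and from -2.16 through -1.76 to -1.29 in colon. The difference was 2.96 (SE 0.15, limma, adjusted P = 1.78e-15), and its second probe differed by 2.37 (SE 0.19). The lowest liver, HF-low-low replicate 3, lay far below the other 11 but above every colon.

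Igfbp5 and Igfbp6, binding proteins of connective tissue and muscle, were higher in colon. Igfbp5 read from -1.78 through -1.10 to 0.13 in colon and from -3.81 through -2.85 to -1.95 in liver, with no overlap, and differed by -1.85 (SE 0.21, 3.60-fold, limma, adjusted P = 3.03e-08). Its second probe, well above background on 1 of 12 arrays in each tissue, differed by -0.35 and is not read further. Igfbp6, which prefers IGF-II, read from -0.63 through 0.33 to 0.88 in colon and from -1.25 through -0.59 to 0.16 in liver, and differed by -0.94 (SE 0.15, 1.91-fold, limma, adjusted P = 8.30e-06). Colon was higher in 10 of 12 mice (exact paired P = 0.00195), and the ranges overlapped. The fibroblast markers read from -1.83 to 0.06 in the colons and from -2.98 to -1.12 in the livers, and the part of these cells and of smooth muscle in both differences was not tested.

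Igfbp3, the main carrier of IGFs in blood, was the member that did not pass. Its log2 ratio was -2.57 through -1.62 to -0.92 in colon and -2.54 through -1.78 to -1.34 in liver, ranges that overlapped almost wholly. The difference was -0.29 (SE 0.17, 95% confidence interval -0.64 to 0.07, limma, adjusted P = 0.217), with liver higher in 4 of 12 mice (exact paired P = 0.0732). It was -0.58 within the arrays of scan day 1 and 0.01 within those of day 2. Median centring in place of loess gave -0.71 (limma, adjusted P = 0.00317), which passes. The loess interval allows a liver level of 0.641 to 1.05 times that of colon. The second Igfbp3 probe, well above background in 1 liver and 2 colons, differed by -0.04 (SE 0.20).

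Without overlap in either direction, 7 of the 10 main probes separated the tissues, 6 of them with all livers above all colons and 1 with all colons above all livers. Over all probes, 5.97% separated with the livers higher and 6.49% with the colons higher. On the 2 scan days taken apart, the 9 called differences kept their sign, and ranged for Igf1 from 4.79 to 4.84 and for Igfbp1 from 5.71 to 6.74. On the processed signals of the extraction software the differences were -2.43 for Igf2, 4.45 for Igfals, 8.45 for Igfbp1 and -2.56 for Igfbp5. As the mean of all probes of the gene they were 3.35 for Igf1 and -1.10 for Igfbp5, and on the Cy3 channel alone that of Igfbp2 was 5.78.

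Neighbouring members did not share a pattern. Igfbp2 and Igfbp5 face each other on chromosome 1, with 6092 bases between their main probes in build mm7. Igfbp2 was higher in liver by 5.02 and Igfbp5 higher in colon, at -1.85. Igfbp1 and Igfbp3 lie in the same way on chromosome 11, with 4092 bases between their main probes. Igfbp1 was higher in liver by 6.23, while Igfbp3 did not pass.

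The genes whose pattern over the 24 arrays was most like that of Igf1, by the root mean square difference of centred log2 ratios among 13768 probes, were H2-Q10 (0.26), Cd302 (0.28) and Gsta3 (0.28), against a median of 2.47 over the candidates. For Igfbp5 they were Ptrf (0.26), Ncam1 (0.31) and B3gnt3 (0.34), against a median of 1.10. These values describe likeness over 24 arrays that share 12 mice and 1 reference.

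The other genes of growth hormone, insulin and IGF signalling were followed in a list of 48, of which 47 had a probe matched by name. In liver 8 were higher, in colon 13 were higher, and 26 were not called, beside 11.4% and 12.2% of all probes called higher in liver and in colon. Among the probes kept by the filter for signal well above background, 45.6% were called in either direction. The list had a median difference of -0.01, and over all probes it was 0.02. Higher in liver were Grb14, an adaptor that restrains the insulin receptor, by 2.55 (SE 0.08), and Irs1, the docking protein of insulin and IGF receptors, by 2.15 (SE 0.12). Stc1 was higher by 1.62, well above background in 6 livers and no colon, a rough bound of 1.29-fold. Lepr, the leptin receptor, which belongs to the same cytokine receptor family as Ghr, was higher by 1.57 (SE 0.29), on a probe well above background in 11 livers and 5 colons.

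Higher in colon were Htra1, a secreted protease that cleaves IGF-binding proteins, at -2.73 (SE 0.16), and its relative Htra3, at -1.95 (SE 0.21). Socs2, a growth hormone target that feeds back on the receptor, was higher in colon as well, at -2.03 (SE 0.20), and Igf2bp2, which binds Igf2 mRNA, at -1.60 (SE 0.14). These rest in part on dim liver signals, since Socs2 was well above background in 7 and Igf2bp2 in 5 of 12 livers. The following 4 genes were picked after their values were seen. Both receptors that bind IGFs were called higher in colon. Igf2r, which clears IGF-II, differed by -0.91 (SE 0.13) and was well above background on all arrays. Igf1r, the signalling receptor, differed by -0.64 (SE 0.17) and was well above background in 1 of 12 livers. Of the signalling steps below Ghr, Stat5b was higher in liver by 0.90 and Jak2 higher in colon, at -0.93. By role, 3 were higher in liver and 3 higher in colon of 11 in growth hormone signalling. In insulin and IGF signalling these counts were 3 and 1 of 15, among the proteases and relatives of the binding proteins 2 and 4 of 10, among receptors and ligand clearance 0 and 2 of 4, and among Igf2 mRNA binding and imprinting 0 and 3 of 7.

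**Figure D3:**
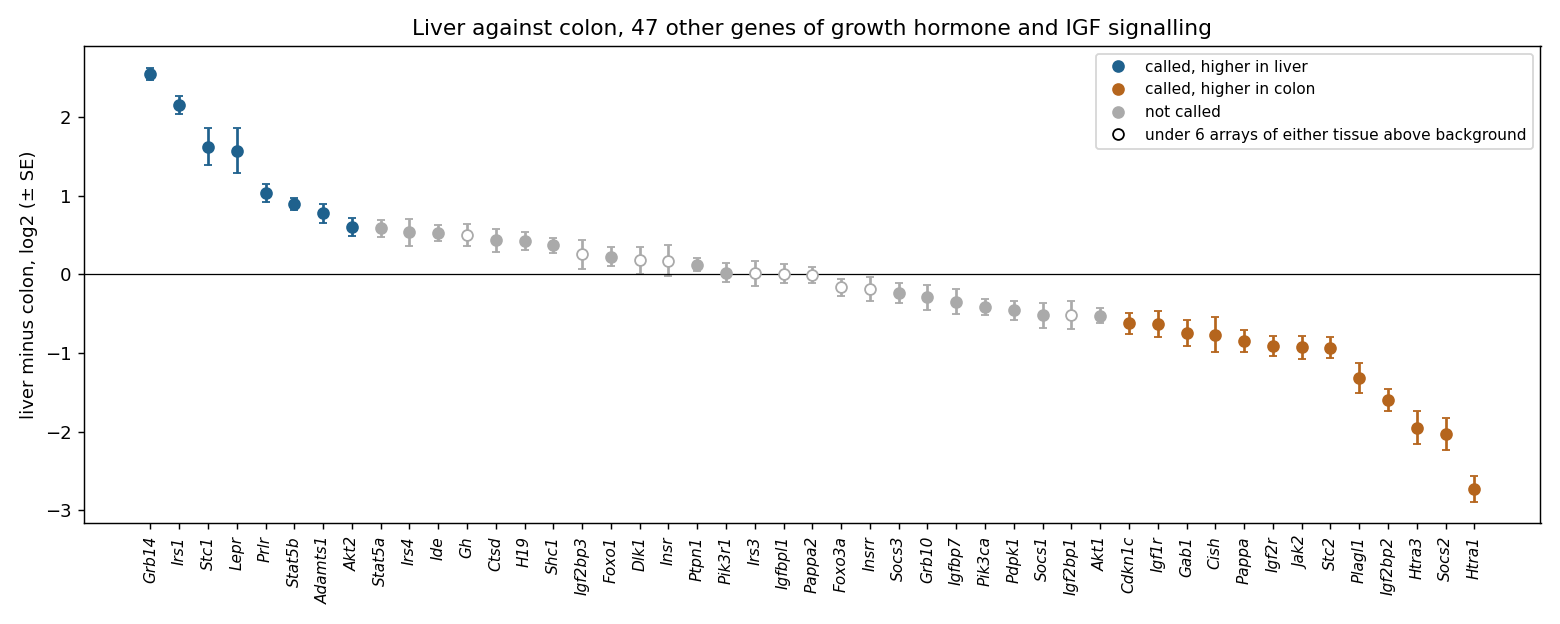
Liver minus colon difference of log2 ratios (vertical axis, with SE) of 47 other genes of growth hormone, insulin and IGF signalling (horizontal axis), ordered by size and coloured by call; open points were well above background on fewer than 6 arrays of either tissue. Called genes run from 2.55 for Grb14 to -2.73 for Htra1, with 8 higher in liver and 13 higher in colon.

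The diet comparison asked whether sufficient selenium and folate after weaning went with other levels of these genes. Differences are HF-low-suf minus HF-low-low with the sample in Cy3, as the labels give the dyes and as the tissue markers bear out; most genes in the tables of the study carry the opposite sign. With that sign, every diet difference and interaction below would turn, and the counts of negative estimates with them. No member was called in liver or in colon at the threshold of the study, an unadjusted P under 0.01 with a fold change over 1.5. Over all probes this threshold called 0.117% in liver and 0.168% in colon, and 0% passed a Benjamini-Hochberg adjusted P under 0.05 in either tissue by limma. At an unadjusted P under 0.05, 0 of 10 members passed in liver, where 2.13% of all probes did, and 1 of 10 in colon, where 2.98% of all probes did.

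**Figure D4:**
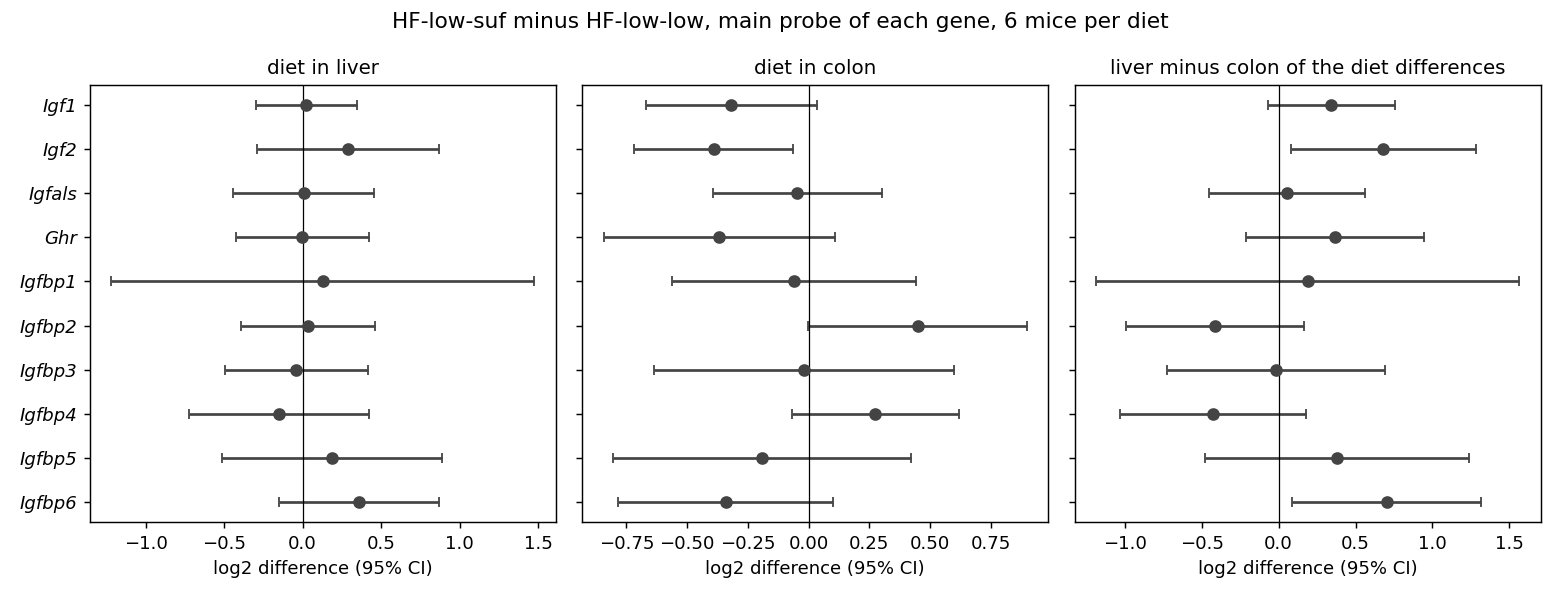
HF-low-suf minus HF-low-low differences (horizontal axis, log2) with 95% confidence intervals for the main probe of each gene (vertical axis) in liver, in colon, and as the liver difference minus the colon difference. In the liver and colon panels every interval spans 0 except that of Igf2 in colon, at -0.39, and Igfbp1 in liver has the widest interval.

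In liver, the estimates for the endocrine members lay near 0. Igf1 read from 1.59 through 2.04 to 2.23 on HF-low-low and from 1.64 through 2.07 to 2.28 on HF-low-suf, a difference of 0.02 (SE 0.15), and its interval of -0.30 to 0.35 allows a fold of 0.814 to 1.27. Igfals differed by 0.01 (SE 0.21), Ghr by -0.0028 (SE 0.20, interval -0.43 to 0.42) and Igfbp2 by 0.04 (SE 0.20). None of the intervals of Igf1, Igfals, Ghr and Igfbp2 reaches a 1.5-fold change in either direction. The largest estimate in liver was that of Igfbp6, at 0.36 (SE 0.24, limma, unadjusted P = 0.152, exact permutation P = 0.184). Igfbp6 was well above background in 3 of 6 livers on HF-low-low and 6 of 6 on HF-low-suf. Its 2 highest livers, HF-low-suf replicates 2 and 1 at 0.16 and 0.03, are those with high fat or muscle transcripts, and without them the difference was 0.081. Within the scan days it was 0.56 and 0.16, and on processed signals 0.75 (limma, unadjusted P = 0.0226). Igf2 followed at 0.29 (SE 0.27) and was well above background in 1 liver of each diet. Without the 3 livers high in colon epithelium and pancreas markers it was 0.22. The remaining values lay between -0.15 for Igfbp4 and 0.19 for Igfbp5. Without HF-low-low replicate 3, whose Igfbp4 level was far below the rest, the Igfbp4 difference was -0.42 (limma, unadjusted P = 0.0153).

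Igfbp1 stood apart from the other members by its spread among the livers, on both diets. It read from 1.36 through 3.12 to 4.19 on HF-low-low and from 1.33 through 2.77 to 5.35 on HF-low-suf. The groups overlapped over the whole HF-low-low range, and the highest liver was on HF-low-suf. The within-diet SD was 1.28, above 99.6% of the 9763 probes well above background in all livers, whose median SD was 0.26. The diet difference of 0.13 (SE 0.63) has an interval from -1.22 to 1.48, which holds both a halving and a doubling. The highest livers of the HF-low-suf group, replicates 1 and 2 at 5.35 and 4.05, are those with high fat or muscle transcripts, and without them the difference was -0.72 (limma, unadjusted P = 0.173). Within the arrays of scan day 1 it was 0.86 and within day 2 -0.60. The 5 measured fasting and insulin responsive genes had mean log2 ratios from 0.53 through 1.15 to 1.52 in the livers on HF-low-low and from 0.70 through 0.96 to 1.44 on HF-low-suf, ranges that overlapped, and none was called by diet. Their part, and that of the time since the last meal, in the spread of Igfbp1 was not tested. For comparison, Igf1 had a within-diet SD of 0.24 in liver, at the 41.6th percentile. The Igf1 value is a mean of up to 10 spots on each array and that of Igfbp1 comes from 1 spot, so the SDs are not fully alike.

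Upstream of its start site, Igfbp1 carries the insulin response element to which FOXO factors bind. The 250 bases before the annotated start are given from RefSeq, build GRCm38.p6, chr11:7197537-7197786, plus strand, with the element CAAAACA in capitals, starting 108 bases before the start site.
Igfbp1: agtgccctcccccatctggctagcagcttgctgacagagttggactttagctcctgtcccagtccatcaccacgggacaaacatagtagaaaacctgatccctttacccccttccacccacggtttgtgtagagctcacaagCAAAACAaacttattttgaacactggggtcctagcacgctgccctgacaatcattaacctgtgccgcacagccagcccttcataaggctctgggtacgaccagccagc
The letters CAAAACA, or TGTTTTG on the other strand, were present in this window of 1 of the 17 start sites listed for the 10 members, and in 5.56% of the 32851 start sites of all genes. A match of letters is a description and no evidence of binding here.

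How members varied together was examined over the 12 livers in 5 relations with Pearson's r and Spearman's rho, each with 100000 permutations and adjusted over the 5. A planned relation of Igfbp1 with Irs2 is not analysed here. Igfbp1 and Pck1, the gluconeogenic enzyme gene that fasting raises and insulin lowers, had r = 0.60 (permutation P = 0.0382, adjusted P = 0.144) and rho = 0.55 (permutation P = 0.0712, adjusted P = 0.178). Pck1 itself ran from -1.90 to 1.96 among the livers. The r was 0.66 when the 2 livers most extreme in Igfbp1 were left out, 0.62 after the diet means were removed, and 0.52 and 0.74 within the scan days. It was 0.90 among the HF-low-low livers and 0.45 among the HF-low-suf livers, and 0.46 over all 12 with median centring (permutation P = 0.130). The relation failed the correction.

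Igf1 and Socs2, both growth hormone targets, had r = 0.57 (permutation P = 0.0576, adjusted P = 0.144) and rho = 0.64 (permutation P = 0.0302, adjusted P = 0.151), with r of 0.65 and 0.59 within scan days 1 and 2. It was 0.26 among the HF-low-low livers and 0.85 among the HF-low-suf livers. Without the 2 livers with the lowest Igf1, both scanned on day 2, r was 0.25, and Socs2 was well above background in 7 of 12 livers. It did not hold under other processing, with r of 0.15 on the processed signals of the extraction software, 0.09 with median centring and 0.20 on the Cy3 channel alone. The 3 livers high in colon epithelium and pancreas markers were among the 4 highest in Socs2, and without them r was 0.69 (permutation P = 0.0431, adjusted P = 0.126). Igf1 with Ghr (r = 0.39, permutation P = 0.212, adjusted P = 0.353), Igf1 with Igfals (r = 0.24, permutation P = 0.466, adjusted P = 0.466) and Igfbp1 with Igfbp2 (r = 0.26, permutation P = 0.418, adjusted P = 0.466) did not pass either. Without the farthest 2 livers these were 0.26, 0.55 and 0.45. Within the scan days Igf1 with Ghr gave 0.19 and 0.60, Igf1 with Igfals 0.63 and 0.44, and Igfbp1 with Igfbp2 0.74 and -0.60, of opposite sign.

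**Figure D5:**
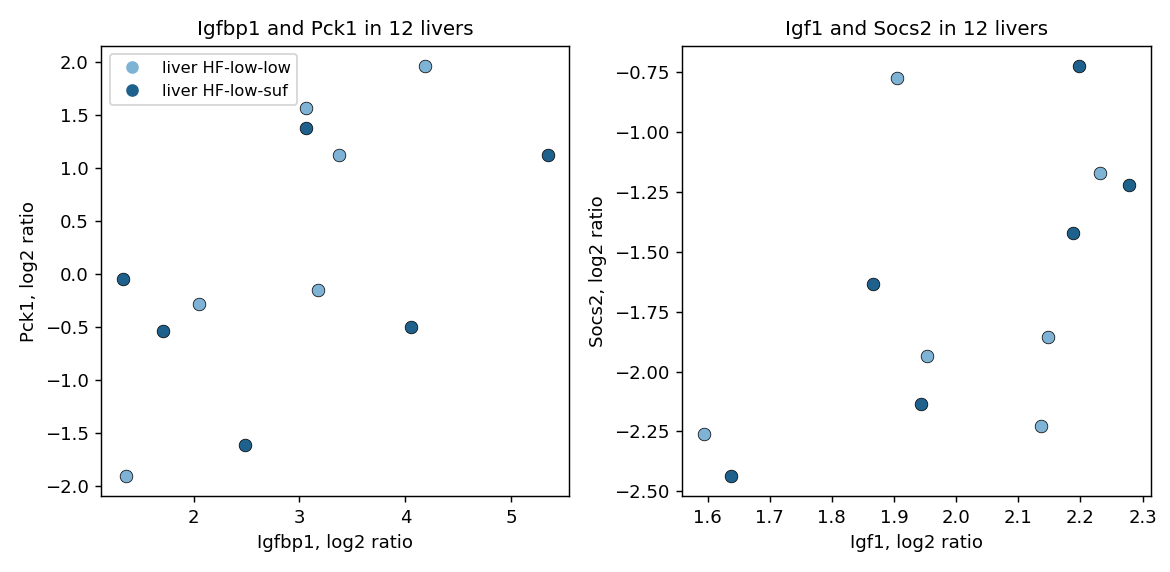
Log2 ratios of Pck1 (vertical axis) against Igfbp1 (left) and of Socs2 (vertical axis) against Igf1 (right) in the 12 livers, coloured by diet, with 1 point per mouse. On the left r is 0.60, which failed the correction, and on the right r is 0.57 over all livers, 0.25 without the 2 livers lowest in Igf1, and 0.65 within scan day 1, which holds neither of them.

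In colon, 8 of the 10 estimates were negative, none past the threshold. Igf2 was the member under an unadjusted P of 0.05. It read from -0.29 through 0.27 to 0.40 on HF-low-low and from -0.42 through -0.26 to -0.04 on HF-low-suf, and the groups overlapped. The difference was -0.39 (SE 0.15, interval -0.72 to -0.06, limma, unadjusted P = 0.0220, adjusted P = 0.9999, exact permutation P = 0.0346). It was -0.41 and -0.37 within the scan days, and the second Igf2 probe, well above background in 8 of 12 colons, gave -0.01 (SE 0.16). Igfbp2 had the largest estimate, 0.45 (SE 0.21, limma, unadjusted P = 0.0504, exact permutation P = 0.0996), from -2.45 through -1.83 to -1.60 on HF-low-low and from -2.08 through -1.62 to -0.98 on HF-low-suf.

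Igf1 in colon read from -3.07 through -2.66 to -2.22 on HF-low-low and from -3.18 through -2.99 to -2.77 on HF-low-suf. The difference was -0.32 (SE 0.17, interval -0.67 to 0.03, limma, unadjusted P = 0.0723), and the second Igf1 probe gave -0.18 (SE 0.14). Ghr differed by -0.37 (SE 0.22), with further RefSeq probes at -0.14 and -0.09, and by -0.56 (limma, unadjusted P = 0.00794) without HF-low-low replicate 5, its lowest colon of that diet. Other differences were -0.34 for Igfbp6 (SE 0.21), 0.275 for Igfbp4 (SE 0.16) and -0.19 for Igfbp5 (SE 0.29). That of Igfbp4 was 0.06 within scan day 1 and 0.49 within day 2. Igfals, Igfbp1 and Igfbp3 lay between -0.06 and -0.02. Beside these, all 6 fat markers were lower in the colons of the HF-low-suf group, none called, with a median difference of -0.37, and in the livers of that group all 6 were higher, none called, with a median of 1.04. The mean fat marker level differed by 0.89 in liver and by 0.061 without HF-low-suf replicates 1 and 2, and by -0.38 in colon and -0.12 without HF-low-suf replicate 5, arrays left out after seeing the data. The part of the fat markers in the members' differences was not tested. In colon, Igfbp3 and Igfbp5 varied most among mice of 1 diet, with SDs of 0.59 each, above 96.8% and 96.6% of the 13836 probes well above background in all colons.

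The difference between the diet effects of the tissues was tested as an interaction. By limma, 0% of all probes and 0 of the 10 members passed the adjustment (smallest adjusted P over all probes 0.348), and 6.43% of all probes had an unadjusted P under 0.05. At that level stood 2 members. Igf2 had 0.29 in liver and -0.39 in colon, an interaction of 0.68 (SE 0.29, limma, unadjusted P = 0.0273, adjusted P = 0.724, exact permutation P = 0.0476), with liver signals that were mostly not above background. Without the 3 livers high in colon epithelium and pancreas markers it was 0.61 (limma, unadjusted P = 0.0283, adjusted P = 0.578). Igfbp6 had 0.36 in liver and -0.34 in colon, an interaction of 0.70 (SE 0.30, limma, unadjusted P = 0.0269, adjusted P = 0.723, exact permutation P = 0.0411). Its colon part was -0.04 on scan day 1 and -0.65 on day 2, and its liver part 0.081 without the 2 livers with fat or muscle transcripts. Its signal was well above background in 3 of 6 livers on HF-low-low and 6 of 6 on HF-low-suf. The Igfbp6 interaction was 0.53 with median centring and 1.14 on processed signals (limma, unadjusted P = 0.00455, adjusted P = 0.9998). Both interactions fail the correction.

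Of the 47 further genes of the list, 1 was called by diet in liver and 0 in colon, beside 0.117% and 0.168% of all probes. It was Igf2bp1, named here because it was the sole call, an Igf2 mRNA-binding protein, at 0.94 in liver (limma, unadjusted P = 0.00844), on a probe that was well above background in no liver and in 1 colon, so its value has no measured level behind it.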

How the data were processed

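RNA of colon and liver was hybridised to 24 2-colour Agilent arrays, 1 array of each group on each of 6 slides, with slides scanned on 2 days. The deposited intensity values are the mean spot signals and backgrounds of both channels that the authors obtained with Feature Extraction. The submitters' processing notes name limma. In the present analysis, R 4.3.3 and limma 3.58.1 were used for normexp background correction (offset 50) and loess within arrays, without scaling between arrays. Control spots and spots marked as outliers were left out, and spots of a probe were averaged. Log2 ratios are Cy3 sample over Cy5 reference.

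Tissues were compared over 24 arrays with mouse as a random block, since the labels place both tissues in the same mouse. Deviations of the 2 tissues of a mouse correlated at -0.03 to 0.28, and the consensus correlation was 0.158. Diets were compared within each tissue over 12 arrays without a block, and the interaction over 24 arrays. Calls used an adjusted P under 0.05 and a fold over 1.5 for tissues, and an unadjusted P under 0.01 with the same fold for diets, and an adjusted P under 0.05 for the interaction. Single probes were also tested two-sided over 4096 sign flips or 924 assignments of diet. Replicates are separate mice, and their number limits the precision. The members, gene lists and tests were chosen with earlier results of these data known. All members are named. Of the pathway list, up to 4 called genes in each direction are named, with others marked as such. The fits were tested on simulated data. Alternatives covered background, normalization, channels, filters, blocks, scan day and left-out arrays.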

Additional observations from a re-analysis of the deposited data

Results flagged for a closer look

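Of 40 groups of 6 values (10 genes in 4 groups), 5 held a value far from the rest of its group. Chance flags about 1 in 20 groups. In liver HF-low-low replicate 3, Igfals was lowest of its group at a log2 ratio of 0.62, with the next at 1.69, and Igfbp4 was lowest at -0.036, with the next at 1.45. The same liver had the lowest mean hepatocyte marker level of the 12 livers, 1.58. Ghr was lowest in colon HF-low-low replicate 5, at -2.94 with the next at -2.05. Ghr was highest in liver HF-low-suf replicate 4, at 1.15 with the next at 0.47, and that array had a bright Cy5 channel and 8.81% outlier spots. Igfbp5 was highest in colon HF-low-low replicate 1, at 0.13 with the next at -0.91. The part of these array properties in the values was not tested.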

How the results depend on the processing

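For the tissue comparison, 249 of 250 member values under other settings, the scan days not among them, kept their direction and side of the threshold, and Igfbp3 with median centring (-0.71) passed it. Some of the 250 could not change. Aquantile scaling between arrays leaves the log2 ratios as they are, and a mean over probes is the same value for the 4 genes with 1 probe. Within the scan days the 9 called members kept their sign, and Igfbp3 was -0.58 on day 1 and 0.0088 on day 2. On processed signals the median of all probes was -0.19, against 0.02 with loess. Under the settings run, no member was called for diet at an unadjusted P under 0.01 with a fold over 1.5, and none for the interaction at an adjusted P under 0.05 (smallest 0.319). Without HF-low-low replicate 6, the Igf2 interaction was 0.81 (limma, unadjusted P = 0.00711, adjusted P = 0.319). Without HF-low-low replicate 3, that of Igfbp4 was -0.68 (limma, unadjusted P = 0.00389, adjusted P = 0.449). Small diet differences changed sign in places, and the cause was not tested. In liver, Igf1 was -0.0088 on processed signals, -0.024 on Cy3 alone, -0.13 as the mean of its probes, -0.11 within scan day 1 and -0.012 without the bright Cy5 arrays. Ghr was 0.083 with median centring, 0.25 within scan day 2 and 0.050 without HF-low-suf replicates 1 and 2. Igfals was -0.068 on Cy3 alone and -0.072 within day 2. Without replicates 1 and 2, Igfbp1 was -0.72, Igfbp2 -0.020 and Igfbp5 -0.019. Without the 3 livers high in colon epithelium and pancreas markers, chosen after seeing the data, Igf1 was -0.10, Igfals -0.037 and Igfbp2 -0.051. Within day 2 Igfbp1 was -0.60, and within day 1 Igfbp2 was -0.036. Igfbp3 was 0.032 with median centring and 0.042 within day 2. In colon, Igfbp1 was 0.024 without background correction, 0.24 on processed signals, 0.10 with median centring and 0.29 within day 2. Igfals was 0.086 with median centring and 0.032 within day 2. Igfbp3 was 0.13 with median centring, 0.063 within day 1, 0.10 without the bright Cy5 arrays and 0.015 as the mean of its probes. Igfbp5 was 0.19 within day 2. The Igfbp1 interaction was -0.089 on processed signals. The r of Igf1 with Igfals was -0.25 on Cy3 alone and that of Igfbp1 with Igfbp2 -0.19 with median centring, in settings chosen after seeing the data.

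Leaving out 1 mouse at a time, the diet difference in liver ranged from -0.056 to 0.10 for Igf1, -0.19 to 0.087 for Igfals, -0.13 to 0.14 for Ghr, -0.34 to 0.46 for Igfbp1, -0.10 to 0.11 for Igfbp2 and -0.17 to 0.053 for Igfbp3. It ranged from 0.17 to 0.46 for Igf2 and 0.021 to 0.39 for Igfbp5. For Igfbp4 it ranged from -0.42 to -0.051 and for Igfbp6 from 0.23 to 0.51, the last without HF-low-suf replicate 6 (limma, unadjusted P = 0.036). In colon it ranged from -0.14 to 0.023 for Igfals, -0.25 to 0.040 for Igfbp1, -0.21 to 0.12 for Igfbp3, -0.38 to 0.023 for Igfbp5, -0.56 to -0.25 for Ghr and -0.44 to -0.19 for Igfbp6. It ranged there from -0.40 to -0.23 for Igf1, 0.35 to 0.57 for Igfbp2 and 0.21 to 0.37 for Igfbp4. For Igf2 in colon it ranged from -0.47 to -0.34 (limma, unadjusted P 0.0064 to 0.054). Under the other settings that of Igf2 ranged from -0.44 to -0.20 (limma, unadjusted P 0.017 to 0.27). The interaction ranged from -0.13 to 0.17 for Igfals, -0.38 to 0.71 for Igfbp1 and -0.18 to 0.17 for Igfbp3.

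Counts over all probes moved more. In liver, 48 probes were called for diet, against 12 without background correction, 2 with median centring, 24 on Cy3 alone, 4 among bright probes, 144 with all 24 arrays in 1 fit, 2 within scan day 2, 31 without HF-low-suf replicates 1 and 2 and 144 without the 3 livers high in colon epithelium and pancreas markers. Leaving out HF-low-low replicate 1, 2, 4 or 5 or HF-low-suf replicate 3 or 6 gave 9 to 28, and leaving out HF-low-low replicate 3 or 6 gave 304 or 243. In colon, 69 were called, against 13 without background correction, 26 with median centring, 19 on Cy3 alone, 3 among bright probes, 113 with scan day as a term, 278 within scan day 1 and 42 without the bright Cy5 array. Leaving out HF-low-low replicate 1 or 2 or HF-low-suf replicate 1 or 5 gave 23 to 42, and leaving out HF-low-low replicate 4, 5 or 6 or HF-low-suf replicate 3 gave 104 to 257. With the slide as a replicate block, 131 probes were called in liver and 92 in colon, and no member. Same-numbered mice of the 2 diets correlated at -0.50 to 0.53 in liver and -0.09 to 0.24 in colon, and 2 and 3 of 6 correlated best with their own number, so the number was not taken as a pairing. With mouse as a fixed replicate block, 9 members differed between tissues.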

Other observations

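The labels describe the reference as an equimolar pool of colon and liver, and the series' design text as one of intestine and liver. Dyes were not swapped and loess centres each array, so the level of a log2 ratio against the reference also holds dye bias and this centring. The liver means of 5 members lay above 1, namely Igf1, Igfals, Igfbp1, Igfbp2 and Igfbp4, and that of Igfbp2 was 9.86-fold over the reference. For 2 members both tissue means lay below -1, Igfbp3 (-1.91 in liver, -1.62 in colon) and Igfbp5 (-2.89 and -1.04). Among 9112 probes well above background in both channels on all arrays, 9.5% had a liver mean above 1 and 3.28% had both means below -1. On processed signals these shares were 15.1% and 3.03%. The makeup of the pool was not tested, and levels against it are not shares of the pool.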
